A study of Danio rerio with 5 samples.

Results

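The methylated genome of the zebrafish blastula was compared with that of the embryo at 24 hours post fertilisation (24 hpf) through the MethylCap-seq peaks of the 2 stages. All peaks on chromosomes 1 to 25 were taken, 220564 at dome and 330176 at 24 hpf, which together make 550740 of the 781830 peaks in the 5 lists of the series. The series also holds H3K27me3 peaks and a later MethylCap stage, which were not compared here. Dome is a late blastula stage, when the cells still form a cap on the yolk; at 24 hpf the body axis, brain and somites are in place. Both libraries came from whole embryos of a mixture of AB and Tubingen strains, with no further treatment or genotype given, and the methylated DNA was captured with the same Diagenode kit. There was 1 library per stage. No value therefore has a replicate spread, no p-value was computed, and each interval below covers counting error only.

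In vertebrates most CpG sites carry a methyl group on the cytosine, which maintenance methyltransferases copy after each DNA replication, while CpG islands at promoters mostly stay free of it. In zebrafish the methylation pattern of the oocyte genome is brought close to that of sperm by the blastula period, and later in development enhancers lose methylation through Tet enzymes. MethylCap-seq captures DNA fragments with a methyl-CpG binding protein, so it reports where methylated CpGs lie close together and responds little to isolated ones. In whole embryos, a methylated site in fewer cells and a less methylated site in all cells cannot be told apart.

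The deposited lists allowed the depth behind each peak to be read. The fold of a peak is the number of fragments over the summit, plus 1, divided by the local background, plus 1, and its p-value is a Poisson probability of the same numbers. A whole number of fragments solved both in 100% of the peaks of either list, with a mismatch of at most 0.000217 on the −log10 p scale, whereas the next whole number missed by at least 0.0157. The median peak had 18 fragments at its summit at both stages, with quartiles of 14 and 22 at dome and of 15 and 22 at 24 hpf. The lowest number called was 8 at both stages. The genome-wide background, below which the local background was never set, was 2.52 fragments per position at dome and 2.67 at 24 hpf, and 33.7% of dome peaks and 36.4% of 24 hpf peaks lay at it. The median fold was 4.12 at dome and 4.09 at 24 hpf, so the typical called peak stood equally high over its background at both stages.

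The resolution of the lists differed more than their height. No dome peak was narrower than 244 bp and no 24 hpf peak narrower than 192 bp, and 16942 and 24174 peaks had exactly these widths. By default the caller takes such a minimum from the fragment length it estimates. If these widths are the fragment lengths and the same genome size was used, the 24 hpf library held 1.34 times as many fragments as the dome library. The 24 hpf list covered 118.9 Mb, or 8.76% of the 1357 Mb spanned by the chromosomes, and the dome list 97.4 Mb, or 7.18%. The median peak spanned 298 bp at 24 hpf and 370 bp at dome. The ratio of peak numbers was 1.497 and that of covered bases 1.22. Of the 24 hpf peaks, 102427 (31.0%) were narrower than any dome peak, and without them the 24 hpf list held 227749 peaks, 1.03 times the dome number.

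Most methylated sites of the blastula were called again at 24 hpf, whereas the 24 hpf list held many sites without a dome call. Of the dome peaks, 181661 (82.4%, Wilson 95% interval 82.2 to 82.5%) overlapped a 24 hpf peak by 1 bp or more, and 38903 did not. Of the 24 hpf peaks, 189398 (57.4%, 57.2 to 57.5%) overlapped a dome peak, and 140778 did not. By bases the sharing was lower. The 65.6 Mb that lay in peaks of both stages were 67.3% of the dome bases, 55.2% of the 24 hpf bases and 43.5% of the bases in either list. For comparison, the 24 hpf list covered 8.76% and the dome list 7.18% of all bases of the chromosomes. With the 24 hpf list shortened to the dome number by −log10 q, which makes the shares nearly equal by construction, shared peaks made up 64.6% of the dome and 65.1% of the 24 hpf list.

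The share of shared peaks depended on depth differently in the lists. Among dome peaks with 8 to 11 summit fragments 72.6% (71.7 to 73.5%) were shared, among those with 23 to 26 fragments 89.2% (88.8 to 89.5%), and among those with 40 or more 88.4% (87.1 to 89.5%). Between these, with 32 to 39 fragments, the share was 84.7% (83.8 to 85.5%), so the dome curve did not climb throughout. Among 24 hpf peaks the shares in the same classes were 31.95% (31.2 to 32.7%), 76.4% (76.0 to 76.8%) and 88.9% (87.4 to 90.2%). At 40 or more fragments the intervals of the stages overlapped, and in the class of 8 to 11 fragments the dome share was higher by far more than the counting error. Summit fragments leave out the local background. By −log10 q the dome share climbed in every decile, from 69.3% to 97.0%, and by fold from 67.7% to 95.9%. In the highest decile of 24 hpf peaks it was 87.7% by −log10 q and 84.8% by fold. Dome peaks were set against the longer list and 24 hpf peaks against the shorter one. The classes and deciles were not compared in lists of equal length, so these shares are not a comparison between the stages.

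**Figure D1:**
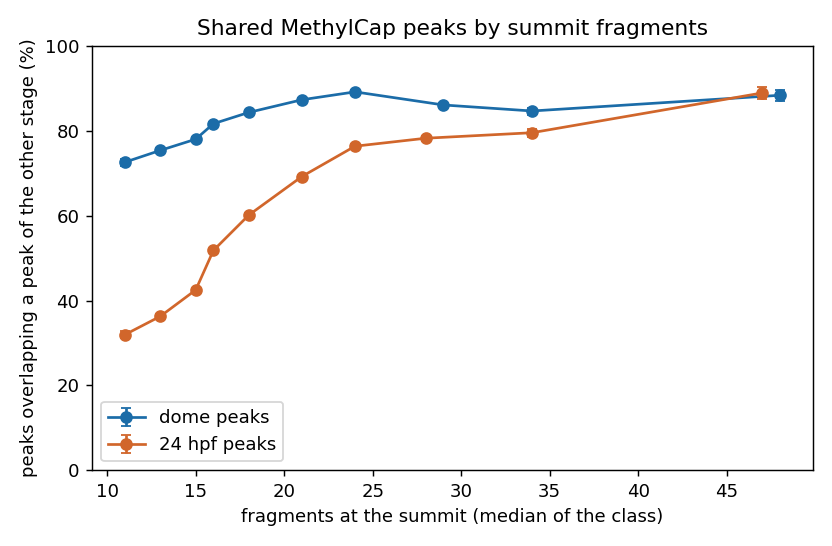
Share of dome peaks (blue) and 24 hpf peaks (orange) that overlap a peak of the other stage, against the median number of fragments at the summit in each of 10 classes; bars are Wilson 95% intervals. The dome shares run from 72.6 to 89.2%, and the 24 hpf shares climb from 31.95% in the lowest class to 88.9% in the highest. Dome peaks are set against the longer list and 24 hpf peaks against the shorter one.

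By width the share climbed in every decile at both stages. A wider peak is more likely to meet a peak of the other list by its size alone, and no share expected from width was computed. In the narrowest decile, 244 to 250 bp at dome and 192 to 198 bp at 24 hpf, the shared part was 64.7% at dome and 27.9% at 24 hpf. In the widest decile, from 737 bp at dome and from 609 bp at 24 hpf, the shares were 98.5% and 94.2%. Unshared dome peaks spanned 295 bp and held 16 summit fragments in the median, against 394 bp and 18 for the shared ones. At 24 hpf the medians were 246 bp and 16 fragments for unshared and 360 bp and 19 fragments for shared peaks. Of the unshared 24 hpf peaks, 68210 (48.5%) were narrower than the narrowest dome peak, compared with 18.1% of the shared ones.

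The distance from unshared peaks to the other list was measured next. The unshared dome peaks had a median gap of 996 bp to the nearest 24 hpf peak, and 19502 of them (50.1%) had one within 1 kb. Beyond 10 kb lay 485 (1.25%). The unshared 24 hpf peaks had a median gap of 1821 bp to the nearest dome peak, 33.1% had one within 1 kb, and 6289 (4.47%) lay beyond 10 kb. The denser list is nearer to any position by its number alone, so these gaps are not a comparison between the stages.

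Unshared peaks were also counted in strings of neighbours with no peak of the other stage between them. At 24 hpf 84135 such strings were found, of which 60.3% were single peaks, 2308 held 5 or more and 67 held 10 or more. At dome there were 34177 strings, of which 88.1% were single peaks and 13 held 5 or more. The longest at 24 hpf, on chromosome 9 of danRer7 (the build of all positions here) from 37136827 to 37232843, held 19 peaks over 96.0 kb with 10 to 22 summit fragments and no dome peak. The next, on chromosome 11 from 27000717 to 27071506, held 15 peaks over 70.8 kb with 11 to 26 fragments. The longest at dome, on chromosome 13 from 11845623 to 11886554, held 10 peaks over 40.9 kb with 9 to 18 fragments. Their median depths were 14, 17 and 14.5 fragments, against a median of 16 for unshared peaks at either stage and of 18 for either whole list. Longer strings are more readily formed by the longer list, so these counts are not a comparison between the stages. A site without a call may have lain below the limit of detection rather than without methylation.

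The 3 strongest unshared dome peaks by −log10 q stood in stretches with many fragments at both stages. On chromosome 23 the dome peaks from 22473050 to 22473436 and from 22487753 to 22488309 had 124 and 122 summit fragments (exact Poisson 95% intervals 103 to 148 and 101 to 146) over local backgrounds of 15.8 and 12.8, and no 24 hpf peak. The nearest 24 hpf peaks were 1825 and 138 bp away, the latter with 16 fragments. Between 22460553 and 22490815 the dome local background was 10.6 to 16.8 and that of 24 hpf 5.24 to 9.72, and some neighbouring peaks were shared and others not. The peak from 22460553 to 22461322, for instance, had 95 fragments at dome and its 24 hpf partner 26. In this stretch the dome library was thus the higher in background as well as in summits. The third, on chromosome 13 from 48684651 to 48685037, had 106 fragments (86.8 to 128) over a background of 12.7 at dome. Its neighbours on both sides, from 48682008 and from 48687007, had 50 and 50 fragments at dome and 34 and 40 at 24 hpf, but the 24 hpf list had no peak between them.

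The strongest unshared 24 hpf peak was isolated. It spanned 385 bp on chromosome 15 from 12668045 to 12668429 and had 45 summit fragments (32.8 to 60.2) over the genome-wide background of 2.67, a fold of 12.6. The nearest dome peak was 22508 bp away. The next by −log10 q, on chromosome 4 from 61305336 to 61305690, had 132 fragments over a local background of 39.9 and a fold of 3.25. The third, on chromosome 3 from 57977479 to 57977920, had 51 fragments (38.0 to 67.1) over 6.14, with a dome peak 375 bp away.

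Dome peaks were divided at 24 hpf more often than the reverse. Of the 181661 dome peaks with an overlap, 12170 (6.7%; 6.59 to 6.82%) held 2 or more 24 hpf peaks, and of the 189398 24 hpf peaks with an overlap, 4872 (2.57%; 2.50 to 2.64%) held 2 or more dome peaks. Division into 2 was the rule, with 11620 dome peaks holding 2 pieces, 519 holding 3, 28 holding 4 and 3 holding 5. Grouping all peaks that touch gave 176644 groups, of which 161210 (91.3%) were one to one, 10626 (6.02%) had 1 dome and several 24 hpf peaks, 3415 (1.93%) several dome peaks and 1 at 24 hpf, and 1393 (0.789%) several of both.

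Division was more common in wider peaks, which have room for several peaks of the other list, and the stages differed at equal width. Dome peaks were here set against the longer list with the narrower peaks, and width classes were not compared in lists of equal length. Among overlapped peaks wider than 600 and up to 800 bp, 14.6% (14.2 to 15.1%) at dome and 6.28% (5.96 to 6.63%) at 24 hpf held several peaks of the other stage. Among those above 1000 and up to 1500 bp the shares were 45.9% (44.6 to 47.2%) and 24.7% (23.3 to 26.1%), and above 1500 bp 61.3% (57.4 to 65.0%) and 48.9% (44.4 to 53.5%). In the class up to 800 bp, divided dome peaks had a median of 21 summit fragments and a median fold of 4.35, and undivided ones 22 fragments and a fold of 4.83. In every class above 400 bp the median depth of divided dome peaks was the same as or lower than that of undivided ones.

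**Figure D2:**
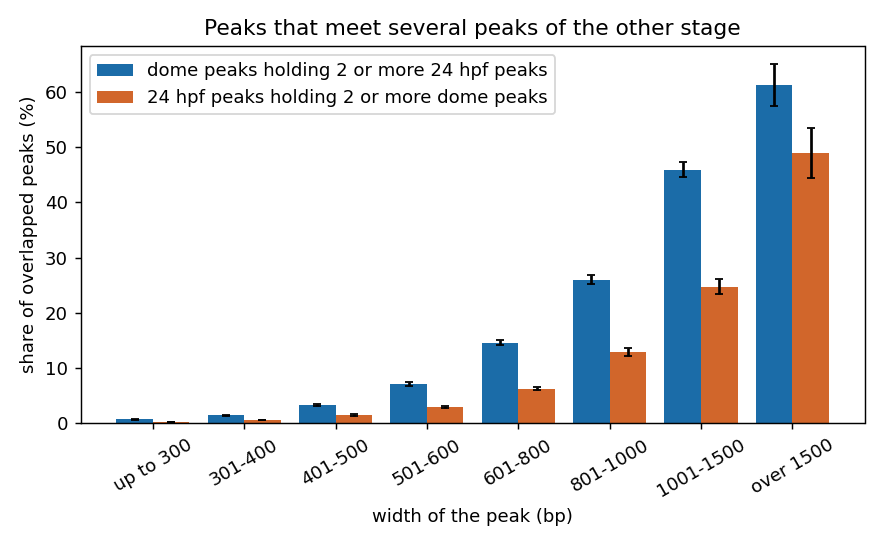
Share of overlapped dome peaks that held 2 or more 24 hpf peaks (blue) and of overlapped 24 hpf peaks that held 2 or more dome peaks (orange), by width class in bp; bars start at 0 and error bars are Wilson 95% intervals. In every class the dome share is the higher, for example 45.9% against 24.7% above 1000 and up to 1500 bp. Dome peaks are set against the longer list and 24 hpf peaks against the shorter one.

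The gaps that divided dome peaks were short. The median gap between neighbouring pieces was 123 bp (quartiles 77 and 194), and the smallest gap between any 2 peaks of a list was 50 bp. The dome summit lay inside a piece in 83.4% (82.8 to 84.1%) of the divided peaks. Where there were 2 pieces of unequal depth and the summit lay in one of them, it lay in the deeper piece in 5587 of 8961 peaks (62.3%, 61.3 to 63.3%). For 24 hpf peaks that held 2 dome peaks the number was 2170 of 3553 (61.1%, 59.5 to 62.7%). No share expected from the widths of the pieces was computed. One example of division was on chromosome 25 from 14785964 to 14788140. There a dome peak of 2177 bp with 18 summit fragments met 5 peaks at 24 hpf with 15, 12, 17, 26 and 20 fragments. On chromosome 24 from 30647995 to 30650329, a dome peak of 2335 bp with 33 fragments met 5 peaks with 22, 24, 21, 18 and 23 fragments. On chromosome 24 the pieces were close to each other in depth and all shallower than the dome peak, whereas on chromosome 25 the pieces stood on both sides of it. In the other direction, a 24 hpf peak of 2228 bp with 31 fragments on chromosome 17 from 43003648 to 43005875 spanned 5 dome peaks with 16 to 22 fragments.

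The shares of divided peaks depended on how gaps and lists were treated. With peaks within 200 bp of each other joined first, 3.04% of dome and 1.45% of 24 hpf peaks held several of the other stage. With lists of equal length the values were 3.68% and 2.87%, and with about the higher-scoring 50% of each list 3.73% and 0.849%. Without the 24 hpf peaks narrower than 244 bp they were 4.397% and 3.09%. The dome share stayed the higher in each of these 4 settings. The part of the shorter fragment length of the 24 hpf list in the division of dome peaks was not tested.

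Summits of matching peaks lay close to each other. The overlap that defines a pair itself limits the distance and favours a summit inside the partner. No values expected from overlap and width alone were computed. In the 161210 one-to-one pairs, which held 73.1% of the dome peaks, the median distance between the summits was 66 bp (95% interval of the median 66 to 67), with quartiles of 29 and 132 bp. The distance was at most 50 bp in 40.7% of pairs, at most 100 bp in 65.2% and above 200 bp in 13.1%. The shift to one side was very small. The 24 hpf summit had the lower coordinate in 49.3% and the higher in 50.2% of pairs, with a median signed distance of 1 bp. The dome summit fell inside the 24 hpf peak in 92.1% of pairs and the 24 hpf summit inside the dome peak in 92.9%. The peaks of a pair had median widths of 383 bp at dome and 363 bp at 24 hpf, and the 24 hpf peak was the narrower in 59.0% of pairs.

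The distance was larger in wider peaks, which leave room for a larger one, and varied less with depth. It was 53 to 54 bp in the 5 narrower deciles of dome width, 89 bp in the eighth (487 to 574 bp) and 145 bp in the widest (from 717 bp). As a share of the dome width it was 14.3 to 21.7%. By dome fold it was 95 bp in the lowest decile and 60 to 75 bp in the others, and by summit fragments 60 to 80 bp. The 3 largest distances, 1586, 1336 and 1314 bp, were in peaks at least 1810 bp wide at both stages. On chromosome 20 the dome peak from 48088220 to 48090473 and the 24 hpf peak from 48088303 to 48090434 had 29 and 29 fragments at their summits, one near the start and the other near the end.

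**Figure D3:**
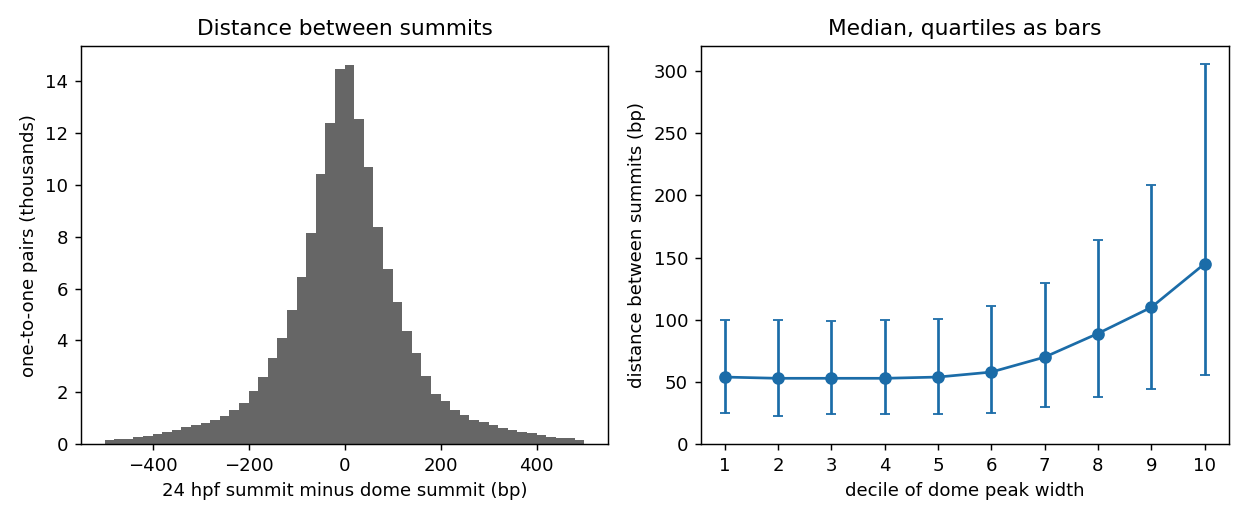
Left, number of one-to-one pairs (in units of 1000) by the 24 hpf minus the dome summit position, in steps of 20 bp. Right, median distance between the summits in bp with quartiles as bars, by decile of dome peak width; the median is 53 to 54 bp in the narrower deciles and 145 bp in the widest.

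The order of the peaks by fold was partly kept. Folds were ranked within each full list, and across the one-to-one pairs the Spearman rank correlation was 0.53, as a description of pairs that share the same 2 libraries. The median difference was 16.6 percentiles, 33.6% of pairs lay within 10 percentiles, and 8.77% lay more than 50 percentiles apart. Peaks at the ends of the order can move in 1 direction only, which raises the share that keeps its decile. Of the pairs in the lowest dome decile 48.6% (47.7 to 49.5%) were in the lowest 24 hpf decile, and of those in the highest dome decile 44.1% (43.4 to 44.8%) were in the highest, whereas in the middle, decile 5, 11.2% (10.7 to 11.7%) kept their decile.

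The other values of the peaks were ranked in the same way. Across the same pairs the rank correlation was 0.83 for the local background, 0.45 for the number of summit fragments and 0.53 for the width. In the 45177 pairs at the genome-wide background in both libraries, where fold and fragments are the same order, the rank correlation was 0.26, and in the 92747 pairs above it in both it was 0.58. The lowest dome decile by fold was not shallow. Its pairs had a median of 21 fragments at dome and 24 at 24 hpf, over local backgrounds of 7.37 and 7.14, while those of the highest decile had 24 and 21 over the genome-wide background. An extreme case was the pair near the start of chromosome 18, from 48267 to 48965 at dome, with 428 and 343 summit fragments but folds of only 1.71 and 1.72.

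The sites that ranked highest by fold at both stages were wider than the median peak. A site on chromosome 25, with a dome peak from 3906772 to 3907328 and a 24 hpf peak from 3906819 to 3907278, ranked 4 by dome fold and 1 by 24 hpf fold, with folds of 13.6 and 18.3 and with 74 (58.1 to 92.9) and 123 (102 to 147) fragments. Per genome-wide background this was 1.57 times as many at 24 hpf (95% interval 1.17 to 2.13, counting error only). The local backgrounds were 4.51 at dome and 5.76 at 24 hpf. A site on chromosome 22, from 30787093 to 30787966 at dome, ranked 7 and 12, with folds of 13.3 and 13.6. It had 114 and 76 fragments (ratio 0.631, 0.466 to 0.851) over local backgrounds of 7.64 and 4.67. A site of 1009 bp on chromosome 4, from 55512994 to 55514002, ranked 13 and 7, with folds of 12.9 and 14.7. It had 171 and 155 fragments (ratio 0.858, 0.686 to 1.07) over local backgrounds of 12.3 and 9.58. Of these 3, the ratio of the last did not differ from 1 beyond its counting error.

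Most matching peaks had similar numbers of fragments at both summits. The log2 ratio of 24 hpf to dome fragments, each per genome-wide background, had a median of 0.01, quartiles of -0.27 and 0.29, and an SD of 0.42 over the pairs. Poisson error of the fragment numbers alone would give an SD of 0.48, but pairs with a low number at either stage are missing because they were not called, which narrows the measured spread, so the values cannot be weighed against each other. In the decile of the deepest pairs, with medians of 30 and 29 fragments, the SD was 0.40 and that of counting 0.37. Over 2-fold more fragments at 24 hpf were found in 1371 pairs (0.85%) and over 2-fold fewer in 1603 (0.994%).

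**Figure D4:**
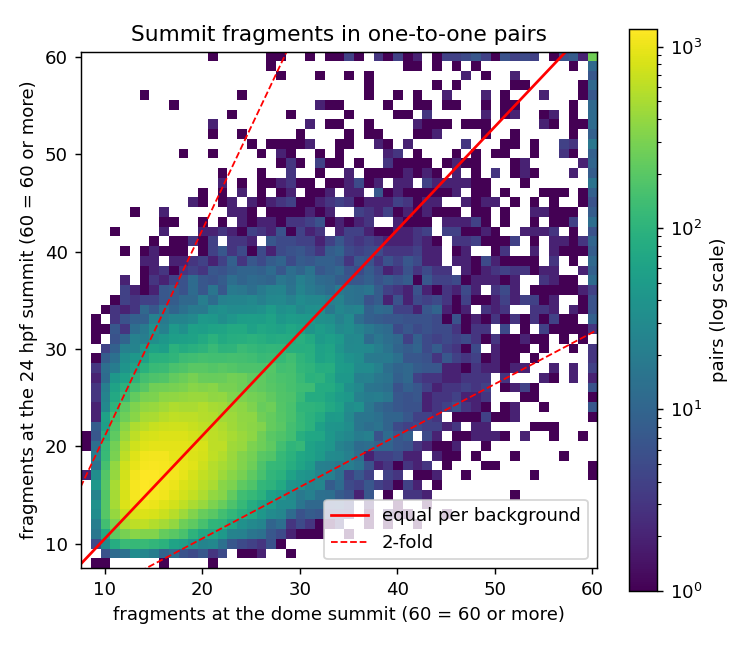
Number of one-to-one pairs (log colour scale) by fragments at the dome summit and at the 24 hpf summit; numbers of 60 or more are drawn at 60. The solid line marks equal fragments per background and the dashed lines a 2-fold difference, outside of which lie 0.85% of pairs above and 0.994% below.

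The pairs farthest from equality lay on different chromosomes. The highest ratio was at chromosome 25, from 1225942 to 1226238 at dome, with 14 fragments at dome and 56 at 24 hpf (ratio 3.79, 2.08 to 7.37). Its local background was also the higher at 24 hpf, 4.51 against 2.52. The lowest was at chromosome 3, from 44058538 to 44059081 at dome, with 88 fragments at dome and 17 at 24 hpf (ratio 0.183, 0.102 to 0.310), where the local background was also the lower at 24 hpf, 5.93 against 11.7. A site on chromosome 17, from 22489915 to 22490217 at dome, moved from fold percentile 8.18 to 99.8, with 9 and 32 fragments (ratio 3.37, 1.57 to 8.02). A site on chromosome 7, from 43714771 to 43715161 at dome, moved from percentile 99.5 to 6.32, with 29 and 9 fragments (ratio 0.294, 0.122 to 0.638). These intervals do not allow for the choice of the most extreme among 161210 pairs.

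Peak density along the chromosomes was broadly similar at both stages. In 1344 bins of 1 Mb the dome list held 53 to 261 peaks with a median of 158, and the 24 hpf list 81 to 369 with a median of 241. The Spearman rank correlation between the lists was 0.88 over the bins, which share the 2 libraries. With lists of equal length it was 0.75. Density was highest towards the chromosome ends. In the first and last 10% of each chromosome it was 202 and 203 dome peaks per Mb, against 135 in the sixth of 10 equal parts, and 295 and 295 against 210.5 at 24 hpf. The ratio of 24 hpf to dome peaks was slightly higher in the middle, with 1.56 (1.53 to 1.58) in the sixth part and 1.46 (1.44 to 1.48) and 1.45 (1.43 to 1.47) in the outer ones. The bins with most dome peaks lay on chromosome 22, where that from 2000001 to 3000000 held 261 dome and 340 24 hpf peaks and that from 1000001 to 2000000 held 260 and 369. At 24 hpf the latter was level with the bin from 1 to 1000000 on chromosome 10, which held 215 and 369. The most unequal bin, on chromosome 18 from 13000001 to 14000000, held 65 and 155 (ratio 2.38, 1.77 to 3.24).

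**Figure D5:**
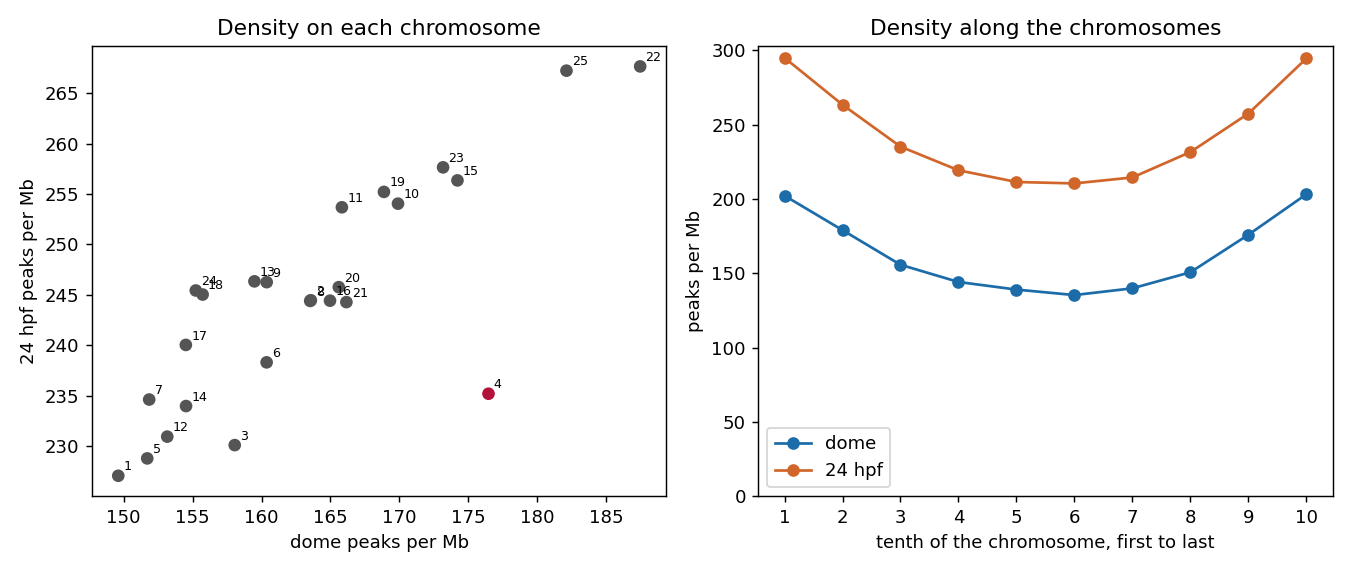
Left, 24 hpf against dome peaks per Mb on each of the 25 chromosomes, with axes that do not start at 0. Chromosome 4 (red), with 176 dome and 235 24 hpf peaks per Mb, lies below the chromosomes of similar dome density. Right, peaks per Mb in 10 equal parts of the chromosomes at dome (blue) and 24 hpf (orange), lowest in the sixth part at 135 and 210.5.

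Chromosome 4 was the exception. It had the third highest dome density (176 peaks per Mb) but rank 19 at 24 hpf (235 per Mb), and a ratio of peak numbers of 1.33 (1.30 to 1.37), against 1.43 to 1.58 on the other 24 chromosomes. Chromosome 22 had the highest density at both stages, 187 and 268 peaks per Mb, and chromosome 1 the lowest, 149.6 and 227. The rank correlation of the densities over the 25 chromosomes was 0.77, and 0.86 without chromosome 4. Of the dome peaks on chromosome 4, 20.9% (20.2 to 21.7%) had no 24 hpf peak, against 16.2 to 19.3% on the others. Of its 24 hpf peaks, 37.7% had no dome peak, against 40.2 to 45.3%. In lists of equal length its ratio was 0.859, and without 24 hpf peaks narrower than 244 bp 0.926. It was the lowest chromosome in both settings. The first setting makes the whole lists equal in number, and the second leaves a ratio of 1.03 between them. A chromosome with a low ratio can thus fall below 1 through the cut alone.

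The low ratio lay mainly in the distal part of chromosome 4, which in zebrafish is a late-replicating, repeat-rich arm with few conserved genes. From 30 Mb to the end, 6926 dome and 8079 24 hpf peaks gave a ratio of 1.17 (1.13 to 1.20), and 24.4% (23.4 to 25.4%) of the dome peaks had no 24 hpf peak. Below 25 Mb, 3116 and 5338 peaks gave a ratio of 1.71 (1.64 to 1.79), and 13.4% (12.2 to 14.6%) of the dome peaks had none. This ratio was above the 1.43 to 1.58 of the other 24 chromosomes, so this part and the distal one departed from them in opposite directions. Of the 24 hpf peaks, 48.1% had no dome peak below 25 Mb and 31.0% from 30 Mb on, against 40.2 to 45.3% on those chromosomes. The dome peaks of the distal part were deep, with a median of 24 fragments, and those of 24 hpf had 21, while below 25 Mb the medians were 16 and 17. Of the 20 bins with the lowest ratio, 13 lay on chromosome 4, which has 62 of the 1344 bins, and the lowest, from 56000001 to 57000000, held 229 dome and 235 24 hpf peaks (ratio 1.03, 0.852 to 1.24). The bins with the highest ratio included those of chromosome 4 from 9000001 to 10000000 (90 and 209 peaks, ratio 2.32) and from 18000001 to 19000000 (90 and 208, ratio 2.31). The border at 30 Mb was chosen with earlier results of these lists known.

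Matching peaks there also had fewer summit fragments per genome-wide background at 24 hpf. The ratio used here leaves out the local background, which is given below. In the 4466 one-to-one pairs of chromosome 4 from 30 Mb on, the log2 ratio of fragments per background had a median of -0.31, and 283 pairs (6.34%) had over 2-fold fewer fragments at 24 hpf, while 0.336% had over 2-fold more. Below 25 Mb the median was 0.11, with 0.842% over 2-fold fewer and 1.32% over 2-fold more. From 25 to 30 Mb the median of 624 pairs was -0.08, with 3.53% over 2-fold fewer and 0.160% over 2-fold more. On the other 24 chromosomes the medians were -0.01 to 0.04 and the shares of pairs over 2-fold fewer 0.519 to 1.24%. The distal part held 2.77% of all pairs and 17.7% of those with over 2-fold fewer fragments. Its share of such pairs, 6.34%, can be set beside the 0.994% among all pairs of the genome.

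The distal pairs had a high local background, and the difference was seen at each level of it. Where the mean local background of a pair was 10 or more, the median log2 ratio was -0.52 (95% interval of the median -0.56 to -0.49) in 580 distal pairs and -0.13 (-0.13 to -0.13) in 3829 pairs of the other chromosomes, and 12.8% (10.3 to 15.7%) and 0.888% (0.636 to 1.24%) had over 2-fold fewer fragments. Where it was from 4 to 6, the medians were -0.29 in 1198 distal pairs and -0.01 in 29630 others, and below 2.6 they were -0.08 in 425 and 0.04 in 43467. The local background itself was also lower at 24 hpf, with medians of 5.37 at dome and 4.45 at 24 hpf over the distal peaks. The genome-wide background was 2.52 at dome and 2.67 at 24 hpf, so relative to it the local background fell by more than these medians show. Whether the distal summits also fell relative to their local background was not tested. Grouping the pairs by their mean local background does not take out this change. How reads with several mapping positions were placed is not given in the sources used here. With 1 library per stage, a difference between the libraries and one between the stages cannot be told apart.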

How the data were processed

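MethylCap-seq peak lists of zebrafish embryos at dome and 24 hpf were compared, with 1 library per stage. Per the submitters' processing notes, CASAVA 1.8.2, Bowtie2 2.2.1, SAMtools and MACS2 were used with the build danRer7. The sources used here do not give their parameters, the use of a control or any pooling. Deposited values are those of the peak caller: fold (a ratio at the summit), −log10 p, −log10 q and a score derived from the latter. They were used within each list. Members and analyses were chosen with earlier results of these data known.

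Positions count from 1. Peaks on chromosomes 1 to 25 were used without any filter; 7 dome and 4 24 hpf peaks on the mitochondrial genome were set aside. The span of a chromosome was the highest peak end. Peaks overlapping by 1 bp or more were shared. Summit fragments and local background were solved from the deposited fold and p-value (tolerance 0.001), which gave each peak's depth. Shares have Wilson 95% intervals, medians order-statistic intervals and ratios of 2 numbers exact binomial intervals. The rule for named regions took the highest ranks by overlap, fold, −log10 q, summit distance and density; pairs with extreme fragment ratios or most fragments, neighbouring peaks, the strings and the division of chromosome 4 were chosen after values were seen. No gene was assigned, since an annotation of danRer7 was not used here. Functions were tested on simulated lists. Python 3.11.15, NumPy 2.4.6, SciPy 1.17.1, pandas 2.3.3 and matplotlib 3.10.9 were used. Alternatives covered the overlap rule, the length and threshold of the lists, the chromosomes, the ranked value and the bins.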

Additional observations from a re-analysis of the deposited data

Results flagged for a closer look

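The mitochondrial genome, which the comparisons leave out, held 7 dome MethylCap peaks and 4 MethylCap peaks of 24 hpf; they are given because they lie outside the comparisons, and no expected number was computed. The dome peaks had 38 to 62 summit fragments over local backgrounds of 6.34 to 14.4 (fold 2.53 to 8.58). Those of 24 hpf had 11 to 13 fragments over the genome-wide background of 2.67 (fold 3.27 to 3.82). No control library was used here, so neither value was compared with uncaptured DNA.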

How the results depend on the processing

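No replicate could be left out. No paired analysis was possible because each stage had 1 library. Depth limits single sites: over the pairs, counting alone gave an SD of 0.48 for the log2 ratio. Shares are given as dome and 24 hpf peaks, first shared, then divided. Requiring 50% of the shorter peak gave 79.7% and 54.9% shared and 4.52% and 1.46% divided, and requiring a summit inside the other peak 74.99% and 52.5% shared. About the higher-scoring 50% of each list was also taken, 110307 dome and 176349 24 hpf peaks, the latter being over 50%. These gave 69.3% and 44.6%, 3.73% and 0.849%, and a rank correlation of fold of 0.46. Lists of equal length gave 64.6% and 65.1%, 3.68% and 2.87%, the rank correlation 0.48, chromosome ratios of 0.859 (chromosome 4, turned below 1) to 1.06, and a rank correlation of 0.75 over bins; here the shorter 24 hpf list sets the ratios. Without chromosome 4 the values were 82.5% and 57.1%, the rank correlation 0.52, a lowest ratio of 1.43 and 0.90 over bins. Joining peaks within 200 bp gave 82.9% of dome peaks shared and 3.04% and 1.45% divided. The median distance was 47 bp between midpoints and 70 bp to the nearest summit. The rank correlation was 0.36 for −log10 q and 0.53 for width, and Pearson's r of log2 fold was 0.57. By covered bases the chromosome ratios were 1.06 to 1.29 and the rank correlation over bins 0.90; bins of 500 kb gave 0.86 and of 2 Mb 0.90. The next 4 settings were chosen after seeing the data. Without 24 hpf peaks narrower than any dome peak, 69.4% and 68.1% were shared and 4.397% and 3.09% divided, the distance was 72 bp and the ratios 0.926 (chromosome 4, turned below 1) to 1.08. Windows of 100 bp on each side of the summits shared 69.4% and 46.4%. Peaks with at least 15 summit fragments gave 76.1% and 51.5% shared, 2.40% of 24 hpf peaks divided, 69 bp, the rank correlation 0.69 and ratios of 1.29 to 1.66. Ranking by summit fragments gave the rank correlation 0.45. In 21 planned and 2 added comparisons the value stayed within the counting interval of the reported one. In 36 planned and 16 added comparisons it moved out of that interval, and in 1 planned and 1 added it turned below 1. The causes of these differences were not tested.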
